A study of Mus musculus with 6 samples.

Results

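The genes described here encode the nuclear-made parts of the mitochondrial respiratory chain and of ATP synthase, measured in AML12, an immortalised and non-tumorigenic line of mouse hepatocytes. They are the rows of the deposited expression table whose gene name begins with Nduf, Uqcr, Uqcc, Cox4 to Cox8 or Atp5, or is Sdha, Sdhb, Sdhc or Sdhd. This rule found 97 of 26359 rows, with 96 different symbols. Complex I had 36 rows, complex II 4, complex III 8, complex IV 20, complex V (ATP synthase) 17, and assembly factors and regulators 12. After the filter on low counts, 90 of the 97 were tested.

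The series concerns TM9SF1, a multi-pass membrane protein of endosomes and the Golgi apparatus, in liver ischemia-reperfusion injury, and its design text describes stably transfected AML12 lines. RNA sequencing of poly(A) mRNA was done on 3 libraries labelled sh-1 and 3 labelled sh-NC. By name sh-1 is a short hairpin line and sh-NC its negative control, and no hairpin sequence, treatment, time or clone is given in the sources used here. The titles of the sh-1 libraries read Sh-2 and those of the sh-NC libraries read only AML12, so the groups rest on the cell line label and whether the controls carry a hairpin is not given. Nothing says that the libraries of a group came from separate cultures, and the p-values therefore reflect just the variation among these 6 libraries, which may be technical.

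The respiratory chain passes electrons from NADH (through complex I) and succinate (through complex II) by way of ubiquinone, complex III, cytochrome c and complex IV to oxygen. Complexes I, III and IV pump protons out of the mitochondrial matrix, and ATP synthase lets them flow back to make ATP. A small set of subunits is encoded in mitochondrial DNA, while most subunits and every known assembly factor come from nuclear genes and are imported.

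Sequencing depth was 36997329 to 51334798 counts per library. Tm9sf1, the gene the hairpin is meant to lower, measured 35.3, 36.8 and 36.5 CPM (TMM-scaled counts for a library total of 1e+06) in the sh-1 libraries, against 47.2, 53.4 and 45.8 CPM in the sh-NC libraries. Its log2 fold change was -0.43 (standard error 0.10, edgeR adjusted p = 0.00186), and after a correction for transcript GC content and length it was -0.09 (edgeR adjusted p = 0.36). Of 12 hepatocyte markers 11 averaged over 1 CPM across the 6 libraries, though not all of these did so in sh-1 alone. The 12 summed to 6915 to 8528 CPM in sh-1 and 10010 to 12250 CPM in sh-NC, mostly from Krt8 and Krt18. Hnf4a, a hepatocyte transcription factor, went the other way, at 309.6 to 360.2 CPM in sh-1 and 146.6 to 155.9 CPM in sh-NC, as did Afp (10.3 to 14.4 CPM in sh-1 and 7.18 to 8.68 CPM in sh-NC). The group means of most other hepatocyte markers were lower in sh-1. Albumin was low in every library, at 1.77 to 3.86 CPM in sh-1 and 3.63 to 5.05 CPM in sh-NC. The 5 cholangiocyte markers summed to 1411 to 1598 CPM in sh-1 and 1663 to 1897 CPM in sh-NC. Epcam and Cftr were at or near 0. The other 3, each over 1 CPM, made up nearly all of this sum, which was far above the level of albumin. The 7 stellate cell or fibroblast markers (Lrat at 0 throughout) summed to 7.85 to 10.1 CPM in sh-1 and 7.56 to 8.61 CPM in sh-NC, and the 4 endothelial markers to 1.63 to 2.23 CPM in sh-1 and 1.08 to 1.69 CPM in sh-NC. The 6 leukocyte markers summed to 1.46 to 2.42 CPM in sh-1 and 4.78 to 5.69 CPM in sh-NC, with Cd3e at 0. Most of the sh-NC sum was Cd68 (0.547 to 1.00 CPM in sh-1 and 4.49 to 5.03 CPM in sh-NC), while Csf1r measured 0.704 to 1.20 CPM in sh-1 and 0.266 to 0.499 CPM in sh-NC. Within the cholangiocyte, stellate cell or fibroblast, and endothelial lists the group means of single markers went in both directions. The part of these marker differences in the results below was not tested.

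Respiratory chain genes moved in both directions, and mostly by small factors. At an edgeR adjusted p under 0.05, 20 of the 90 tested members were higher in sh-1, 31 were lower and 39 did not pass. The share called was 56.7% of the members, while 65.5% of all 13197 tested genes were called, 33.3% higher and 32.2% lower. The members' median log2 fold change was -0.03, against -0.00065 over all tested genes. Their median absolute log2 fold change was 0.35, against 0.66 over all tested genes. A called change of at least 2-fold was reached by 4 members (4.44%), Ndufs1, Atp5j and Atp5s upward and Cox6a2 downward, and by 3921 of all tested genes (29.7%). The sh-1 and sh-NC libraries did not overlap in 50 of the 90 members (55.6%), against 70.3% of all tested genes.

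**Figure D1:**
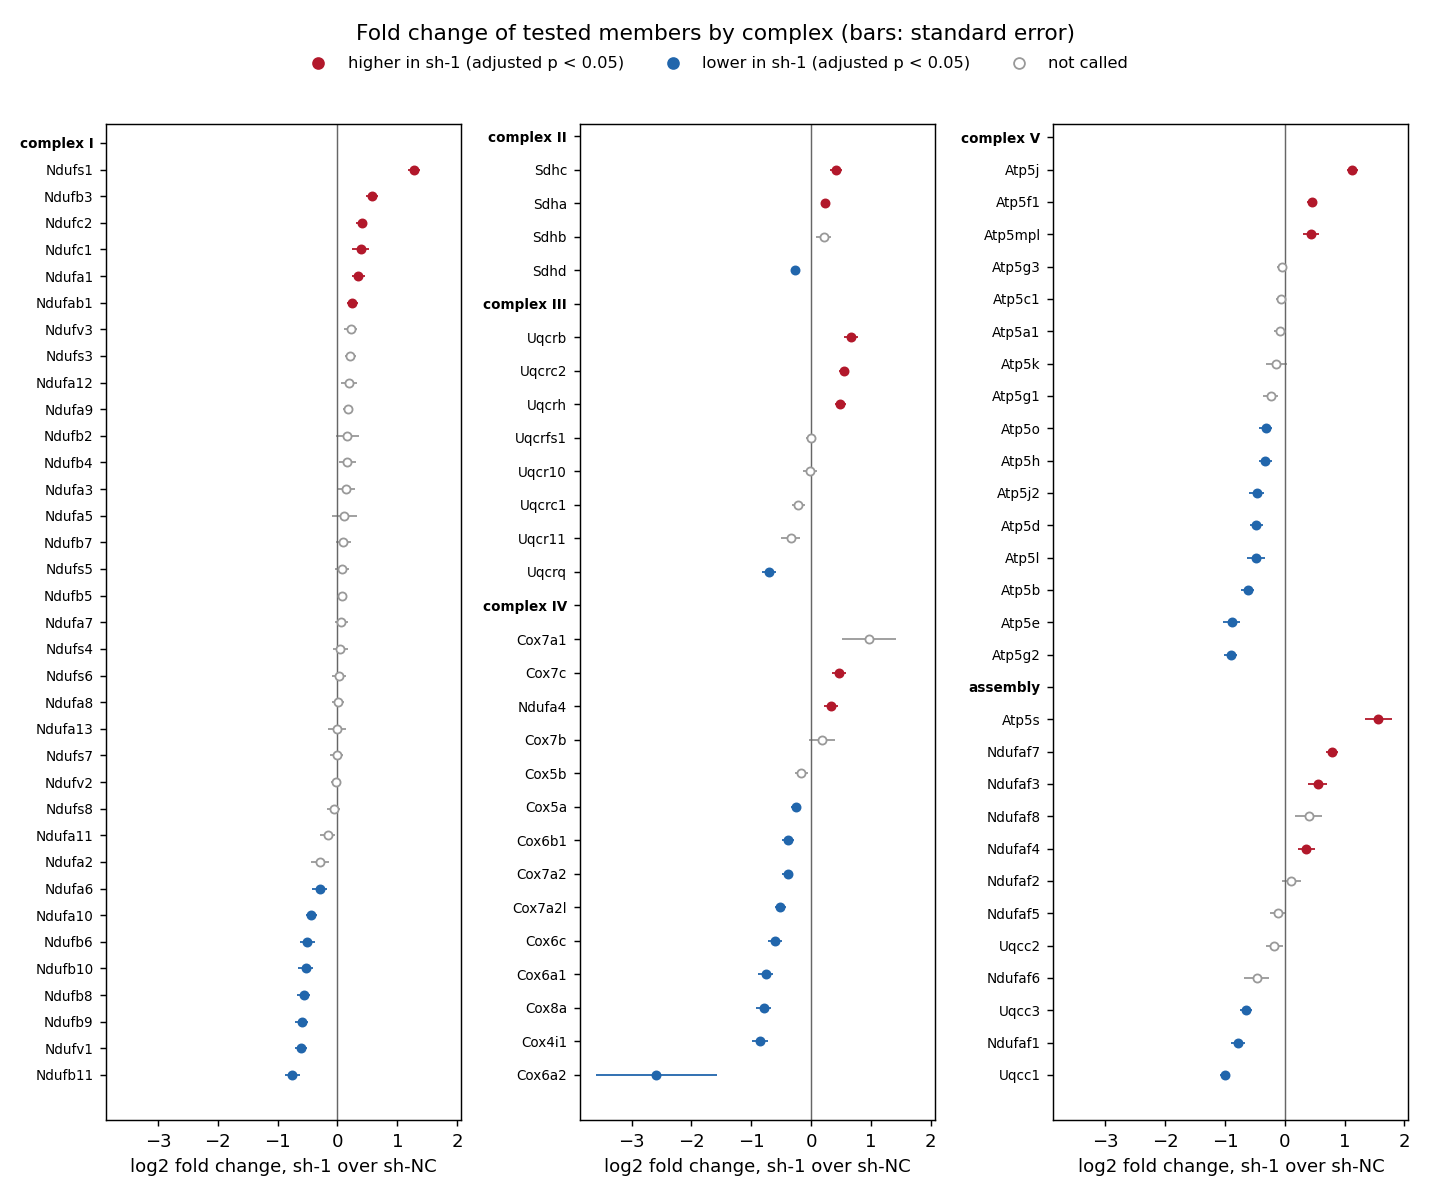
Log2 fold change of sh-1 over sh-NC for the tested members with the exception of 1 that is not reported here, ordered within each complex, with bars for the standard error. Filled red points are members called higher in sh-1, filled blue points members called lower and open points those not called. In complex IV 9 of 14 tested members are blue, where 32.2% of all tested genes were called lower.

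The split of calls is given by complex, and differences between complexes were not tested. Complex I had 6 higher, 9 lower and 21 not called of 36, with a median log2 fold change of 0.06. Complex II had 2 higher, 1 lower and 1 not called of 4 (median 0.22), and complex III had 3 higher, 1 lower and 4 not called of 8 (median -0.01). In complex IV 2 of 14 tested members were higher, 9 lower and 3 not called (median -0.39). Complex V had 3 higher, 8 lower and 5 not called of 16 (median -0.28). Assembly factors and regulators had 4 higher, 3 lower and 5 not called of 12 (median -0.00385).

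As a share of all counts in a library, the summed complex IV members took 0.211, 0.210 and 0.199% in sh-1, against 0.245, 0.298 and 0.304% in sh-NC. Complex V took 0.563, 0.532 and 0.546% in sh-1, against 0.606, 0.657 and 0.670% in sh-NC. For both complexes every sh-1 library lay below every sh-NC library. Complex II ran the other way without overlap, with 0.0694, 0.0670 and 0.0660% in sh-1, against 0.0565, 0.0589 and 0.0575% in sh-NC. Complex I took 0.327, 0.315 and 0.307% in sh-1, against 0.302, 0.355 and 0.350% in sh-NC. Complex III took 0.119, 0.113 and 0.112% in sh-1, against 0.100, 0.111 and 0.110% in sh-NC. The assembly factors took 0.0332, 0.0320 and 0.0329% in sh-1, against 0.0367, 0.0404 and 0.0385% in sh-NC. The groups overlapped for complex I, where sh-NC replicate 1 was the lowest of the 6 libraries, and did not overlap for complex III or the assembly factors. All members together averaged 1.29 ± 0.0332% of the counts in sh-1 and 1.47 ± 0.103% in sh-NC (SD, n = 3 each). These shares carry no GC adjustment and weigh highly counted members most. In complex V, Atp5b averaged 1508 CPM in sh-1 and 2315 CPM in sh-NC, and Atp5a1 1582 and 1677 CPM. In complex IV, Cox4i1 averaged 548.3 CPM in sh-1 and 992.1 CPM in sh-NC. The median log2 fold change before and after a GC adjustment was -0.28 and -0.05 in complex V, and -0.39 and -0.40 in complex IV. With bulk RNA from a culture, fewer cells that express a gene and less of its RNA per cell cannot be told apart.

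**Figure D2:**
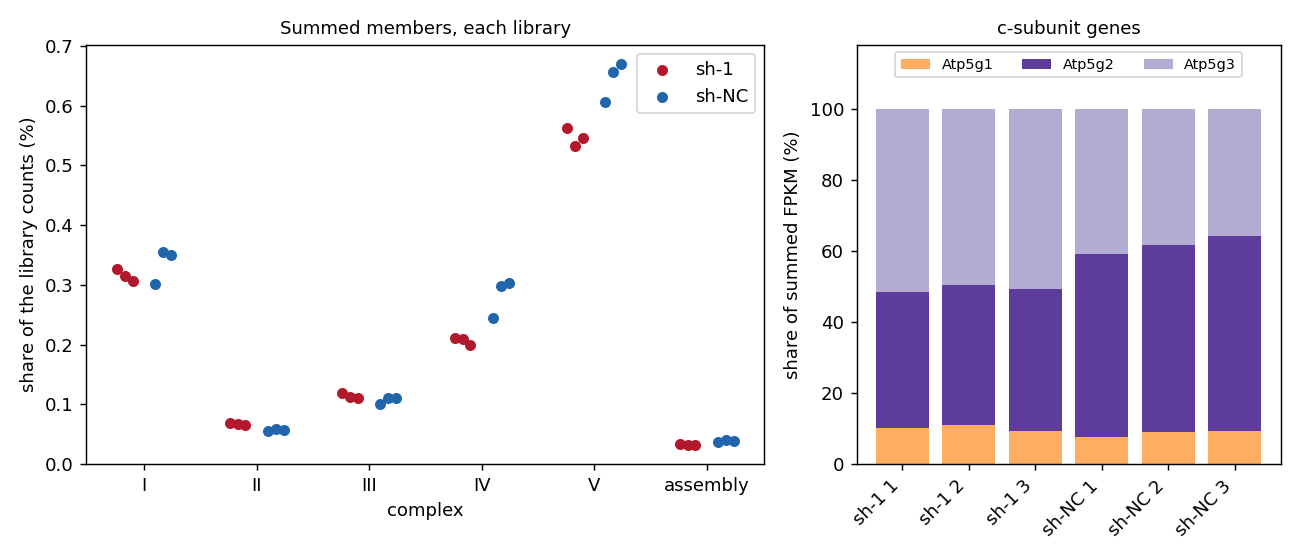
Left, share of each library's counts (%) taken by the summed members of each complex, 1 point per library, sh-1 beside sh-NC. Right, share of the summed FPKM (%) of the 3 c-subunit genes in each library, where Atp5g2 made up 39.2% on average in sh-1 and 53.0% in sh-NC.

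For these genes sh-NC replicate 1 stood apart from the other sh-NC libraries. Of the 31 members called lower, 28 had sh-NC replicate 1 as the sh-NC library nearest to the sh-1 mean, whereas it was the nearest for 48.1% of the 4253 genes called lower over the whole series. Of the 20 members called higher it was nearest in 3, against 59.7% of the 4395 genes called higher over the whole series. Without sh-NC replicate 1, 16 members were higher and 38 lower, where 8728 of all 13547 genes tested in that fit were called in either direction. By complex the counts were then 4 higher and 11 lower in complex I, 2 and 1 in complex II, 3 and 3 in complex III, 1 and 10 in complex IV, 3 and 9 in complex V, and 3 and 4 among the assembly factors.

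Over all genes the fold changes ran along with transcript GC content, and each member was therefore also read after the trend of each library along GC content and length had been removed, called the GC-adjusted value from here on. Before this step the Spearman correlation of GC content with log2 fold change was -0.36 across the 90 members and -0.50 across 11956 genes, which share the same 6 libraries and are not replicates. The 13 members under 45% GC had a median of 0.39, with 9 called higher (69.2%) and 0 lower, while all genes in that range had a median of 0.84, with 65.8% higher and 8.06% lower. The 25 members from 45 to 50% GC had a median of 0.03, with 8 higher and 8 lower, where 1276 of all 3038 genes were higher and 732 lower. The 30 from 50 to 55% had a median of -0.29, with 1 higher (3.33%) and 15 lower (50%), against 21.5% and 43.2% of all genes. The 22 above 55% had a median of -0.17, with 2 higher (9.09%) and 8 lower (36.4%), against 12.8% and 52.5% of all genes. All genes in these 3 ranges had medians of 0.20, -0.22 and -0.45.

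With the GC-adjusted values 27 of 90 members were higher and 40 lower, where 67.6% of all genes were called, 32.9% higher and 34.7% lower. Of the 20 members called higher before, 9 were still higher and 6 were now lower. Of the 31 called lower before, 27 were still lower and 0 were now higher. By complex the GC-adjusted counts were 13 higher and 11 lower in complex I, 3 and 1 in complex II, 3 and 2 in complex III, 1 and 13 of 14 in complex IV, 4 and 7 of 16 in complex V, and 3 and 6 among the assembly factors. After the adjustment the rho of GC content with log2 fold change was 0.47 across the members and 0.02 over all genes. The step takes out GC content and length together, and the members' median transcript length was 913 bases, against 3078 over all genes. Both values are those of each gene's longest protein-coding transcript, for example 4715 bases for Atp5g1, 3690 for Cox17 and 2142 for Ndufb8. Whether that transcript is the one expressed here was not tested, and the GC-adjusted values carry this limit.

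**Figure D3:**
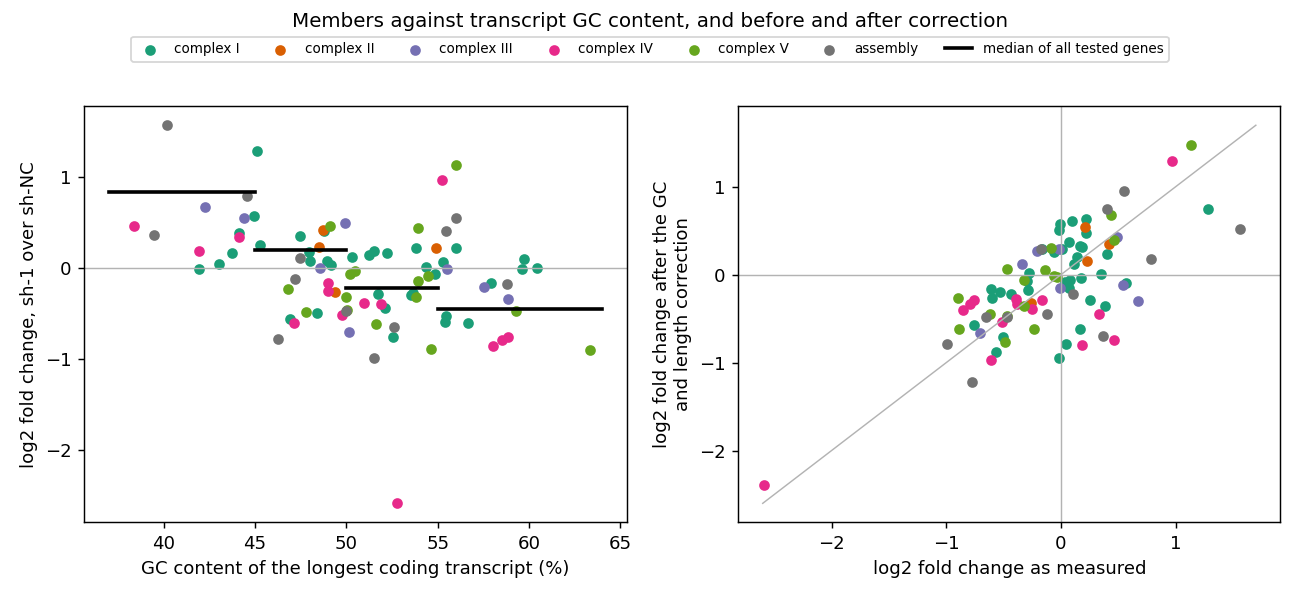
Left, log2 fold change of sh-1 over sh-NC for the 90 tested members against the GC content (%) of their longest coding transcript, with black lines for the median of all tested genes in each GC range. Right, the same members' log2 fold change before (horizontal) and after (vertical) the GC content and length adjustment, with a diagonal of equal values and points coloured by complex. Members under 45% GC lie mostly above 0 before the adjustment (median 0.39). Complex IV members lie mostly below 0 after it (13 of 14 called lower, against 34.7% of all genes).

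Promoters of these genes are known in mammals for sites of NRF1, of GABPA (also called NRF-2) and of YY1. In RefSeq promoter windows (GRCm38.p6, 250 bases before to 50 after a gene's start), 74 of the 90 tested members were matched, and each motif was searched on both strands. The NRF1 motif GCGCATGCGC, a palindrome, was in 7 of the 74 members (9.46%), against 2.43% of 9387 tested genes with a window. The YY1 motif AAGATGGC was in 11 (14.9%), against 5.52% of genes, and the GABPA motif CCGGAAGT in 5 (6.76%), against 9.61%. The NRF1 letters were found in 1 of the 13 matched members called higher, 2 of the 25 called lower and 4 of the 36 not called. The called members with these letters were Ndufaf4 (higher), Cox6a1 (lower) and Atp5g2 (lower), whose windows are given here, 5′ to 3′ on the gene's strand with the NRF1 motif in capitals, because they carry the same letters and were called in different directions (Ndufaf4 higher before and lower after the GC adjustment). Ndufaf4 is chr4:24897833-24898132 (plus strand), Cox6a1 chr5:115348909-115349208 (minus strand) and Atp5g2 chr15:102670998-102671297 (minus strand). The RefSeq start inside the Atp5g2 window lies 1305 bases from the outermost GENCODE start of the gene. A match describes letters in the window and shows no binding.
Ndufaf4: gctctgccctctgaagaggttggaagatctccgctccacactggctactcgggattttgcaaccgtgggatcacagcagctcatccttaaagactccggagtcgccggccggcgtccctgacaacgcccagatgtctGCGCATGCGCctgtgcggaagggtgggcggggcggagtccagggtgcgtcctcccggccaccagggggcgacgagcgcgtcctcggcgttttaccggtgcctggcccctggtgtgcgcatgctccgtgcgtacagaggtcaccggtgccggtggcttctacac
Cox6a1: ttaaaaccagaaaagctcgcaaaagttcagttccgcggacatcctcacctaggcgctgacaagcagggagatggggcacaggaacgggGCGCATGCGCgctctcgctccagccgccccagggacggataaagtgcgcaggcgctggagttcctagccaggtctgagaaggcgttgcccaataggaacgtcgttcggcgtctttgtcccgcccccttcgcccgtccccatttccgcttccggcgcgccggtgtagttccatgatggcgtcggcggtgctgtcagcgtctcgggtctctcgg
Atp5g2: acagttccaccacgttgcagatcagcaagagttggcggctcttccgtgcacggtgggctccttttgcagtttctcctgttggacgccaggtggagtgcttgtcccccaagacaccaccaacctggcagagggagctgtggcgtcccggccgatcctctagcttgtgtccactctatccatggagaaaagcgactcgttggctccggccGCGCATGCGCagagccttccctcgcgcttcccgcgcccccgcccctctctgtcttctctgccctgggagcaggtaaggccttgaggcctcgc

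Complex I takes electrons from NADH through a matrix arm of core subunits shared with bacteria, to which accessory subunits are added. Within the module that binds NADH, the 3 core genes Ndufs1, Ndufv1 and Ndufv2 went separate ways.

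Ndufs1 encodes the largest subunit of complex I, which holds several of its iron-sulfur clusters (chromosome 1, 63143596 to 63176833, minus strand, GRCm38). It measured 137.7, 121.3 and 134.2 CPM in sh-1, against 61.9, 50.2 and 49.6 CPM in sh-NC. All sh-1 libraries lay above all sh-NC libraries, a 2.43-fold difference (log2 fold change 1.28 with SE 0.10, edgeR adjusted p = 4.44e-07). The GC-adjusted value was 0.75 (edgeR adjusted p = 1.82e-06). Exons of Ndufs1 overlap Eef1b2 on the opposite strand, and whether counting used strand is not given in the sources used here.

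Ndufv1 encodes the subunit that binds NADH and flavin mononucleotide, the entry point of electrons. It measured 260.2, 228.3 and 227.1 CPM in sh-1, against 318.8, 368.4 and 402.9 CPM in sh-NC. The groups did not overlap, and sh-1 was lower (log2 fold change -0.61 with SE 0.10, edgeR adjusted p = 0.000155; GC-adjusted -0.16, edgeR adjusted p = 0.0338). Ndufv2, its iron-sulfur partner in the same module, measured 84.6, 84.2 and 89.5 CPM in sh-1, against 81.6, 91.5 and 88.5 CPM in sh-NC. The libraries were interleaved, with a log2 fold change of -0.02 (standard error 0.08, edgeR adjusted p = 0.864), although the GC-adjusted value was -0.95 (edgeR adjusted p = 6.24e-07) at a low GC content of 41.96%.

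The core subunits Ndufs3, Ndufs7 and Ndufs8, also of the matrix arm, did not pass, at 0.22, -0.01 and -0.06. Each of these 3 was called higher after the GC adjustment, at 0.48, 0.51 and 0.25.

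The complex I members called lower included 5 Ndufb genes, which encode accessory subunits of the membrane arm. Ndufb11 measured 119.6, 96.1 and 102.0 CPM in sh-1, against 145.7, 189.7 and 201.0 CPM in sh-NC. Every sh-1 library was below every sh-NC library (log2 fold change -0.76 with SE 0.12, edgeR adjusted p = 0.000159; GC-adjusted -0.57). Ndufb8, which had the highest mean FPKM of the complex, measured 235.3, 223.2 and 211.5 CPM in sh-1, against 270.6, 351.1 and 370.2 CPM in sh-NC. Its groups did not overlap either (log2 fold change -0.57 with SE 0.11, edgeR adjusted p = 0.000625; GC-adjusted -0.88). In both genes sh-NC replicate 1 was the control nearest to sh-1. Ndufb9, Ndufb10, Ndufb6, Ndufa10 and Ndufa6 were also lower, with log2 fold changes between -0.60 and -0.30. The groups of Ndufa6 overlapped, and its GC-adjusted value of -0.07 did not pass (edgeR adjusted p = 0.376).

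Ndufb3, another membrane arm subunit, measured 58.6, 56.4 and 53.4 CPM in sh-1, against 33.6, 39.3 and 40.4 CPM in sh-NC. It was higher in each sh-1 library (log2 fold change 0.57 with SE 0.10, edgeR adjusted p = 0.0003), and the GC-adjusted value was -0.09 (edgeR adjusted p = 0.362). The remaining rises were Ndufc2 (0.40), Ndufc1 (0.39), Ndufa1 (0.35) and Ndufab1 (0.25), the gene of the mitochondrial acyl carrier protein. Of these 4 only Ndufc2 was still higher after the GC adjustment (0.24, edgeR adjusted p = 0.00932). Ndufc1 and Ndufab1 were then lower (-0.36 and -0.28) and Ndufa1 was at 0.0034. The accessory genes that did not pass had log2 fold changes between -0.29 for Ndufa2 and 0.22 for Ndufv3.

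**Figure D4:**
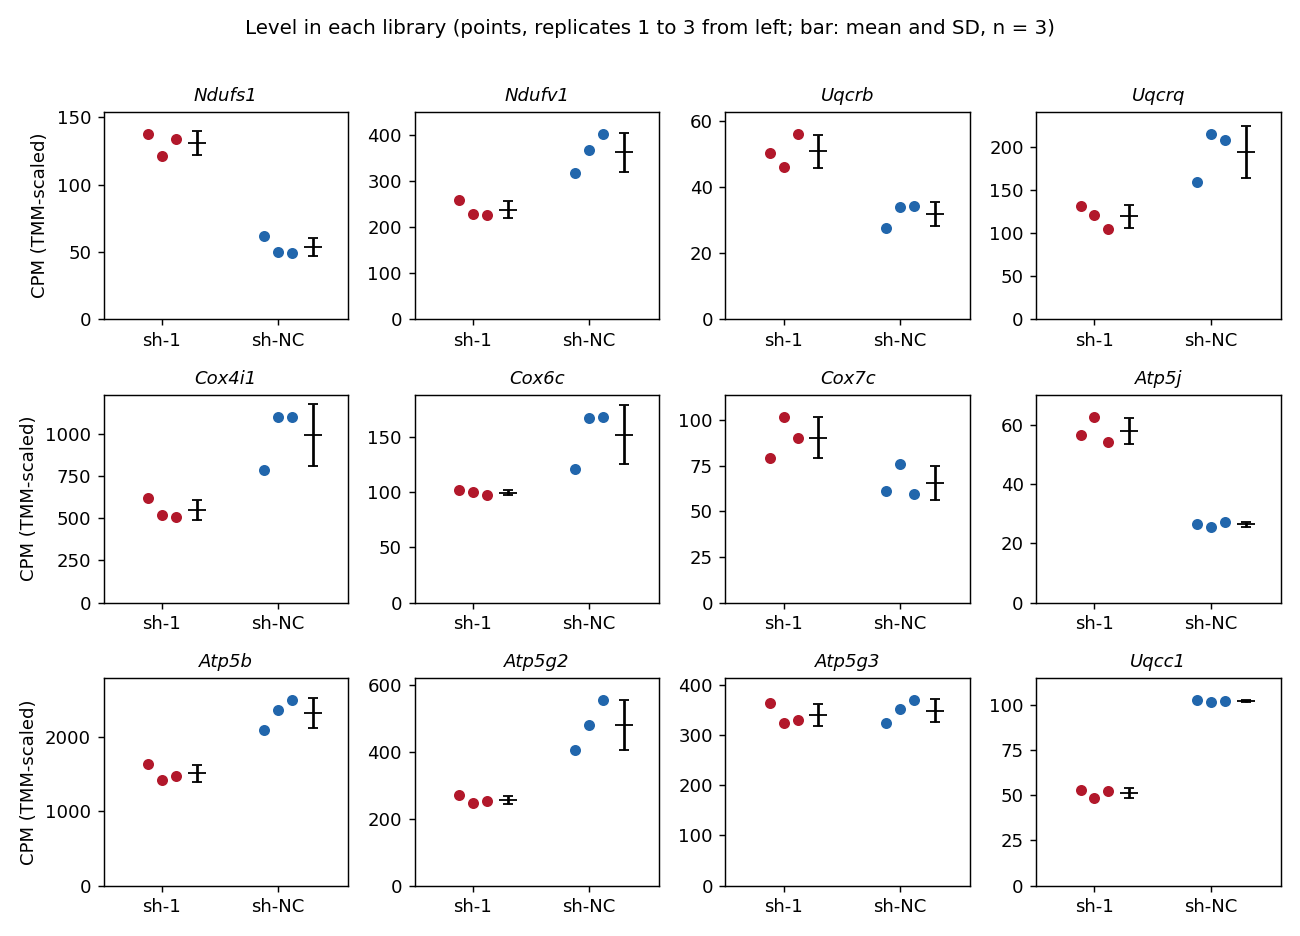
CPM (scaled by TMM) of 12 members in each of the 6 libraries, sh-1 left of sh-NC, with the mean and SD (n = 3) beside the points. Ndufs1, Uqcrb, Cox7c and Atp5j lie higher in sh-1, Atp5g3 overlaps, and the other 7 lie lower, most of them with sh-NC replicate 1 (the first blue point) as the lowest control.

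Complex II, succinate dehydrogenase, belongs to both the citric acid cycle and the respiratory chain, and all its subunits are nuclear-encoded. Sdhc, a membrane anchor, measured 122.5, 108.7 and 110.2 CPM in sh-1, against 75.6, 82.9 and 97.3 CPM in sh-NC. All sh-1 libraries were above the sh-NC libraries (log2 fold change 0.42 with SE 0.10, edgeR adjusted p = 0.00309; GC-adjusted 0.35). Sdhd, the other anchor, measured 143.4, 128.3 and 128.0 CPM in sh-1, against 160.1, 156.6 and 163.1 CPM in sh-NC. It was lower without overlap (log2 fold change -0.26 with SE 0.08, edgeR adjusted p = 0.0103; GC-adjusted -0.32), so the 2 anchors of the same complex moved in opposite directions.

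Sdha, the flavoprotein that oxidises succinate, measured 254.5, 272.4 and 259.1 CPM in sh-1, against 220.4, 229.5 and 219.5 CPM in sh-NC. The groups did not overlap (log2 fold change 0.23 with SE 0.07, edgeR adjusted p = 0.015; GC-adjusted 0.15). Sdhb, the iron-sulfur subunit, measured 170.1, 128.4 and 139.5 CPM in sh-1, against 104.3, 140.2 and 133.4 CPM in sh-NC. Its groups overlapped and it did not pass (log2 fold change 0.21 with SE 0.13, edgeR adjusted p = 0.155), while the GC-adjusted value of 0.54 did (edgeR adjusted p = 7.75e-05). The call of Sdha was lost without sh-NC replicate 3 (at 0.22, edgeR adjusted p = 0.0508) and without sh-1 replicate 2 (at 0.215, edgeR adjusted p = 0.059). That of Sdhd was lost without sh-1 replicate 2 (at -0.225, edgeR adjusted p = 0.0634) and without sh-1 replicate 3 (at -0.225, edgeR adjusted p = 0.0574).

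Complex III passes electrons from ubiquinol to cytochrome c. Uqcrb, which binds near the ubiquinone site of cytochrome b, measured 50.4, 46.1 and 56.0 CPM in sh-1, against 27.6, 33.9 and 34.1 CPM in sh-NC. Uqcrc2, a core structural subunit, measured 259.2, 242.5 and 253.7 CPM in sh-1, against 185.3, 161.7 and 170.5 CPM in sh-NC. Both were higher in every sh-1 library, with log2 fold changes of 0.67 (standard error 0.12, edgeR adjusted p = 0.000246) and 0.55 (SE 0.08, edgeR adjusted p = 6.81e-05). Their GC-adjusted values had the opposite sign, -0.30 (edgeR adjusted p = 0.0156) for Uqcrb and -0.11 (edgeR adjusted p = 0.132) for Uqcrc2, at GC contents of 42.2 and 44.4%.

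Uqcrh, the hinge protein beside cytochrome c1, measured 133.5, 141.3 and 139.0 CPM in sh-1, against 88.3, 98.7 and 108.1 CPM in sh-NC. It was higher without overlap (log2 fold change 0.49 with SE 0.09, edgeR adjusted p = 0.00038) and kept its value after the GC adjustment (0.43). Uqcrq, a small subunit at the membrane, measured 131.5, 121.2 and 105.1 CPM in sh-1, against 159.0, 214.6 and 208.1 CPM in sh-NC. It was the complex III member called lower (log2 fold change -0.70 with SE 0.12, edgeR adjusted p = 0.000239; GC-adjusted -0.67). Uqcrfs1, the Rieske iron-sulfur protein and the nuclear-encoded catalytic subunit of the rule, was level between the groups, with 184.2 ± 11.8 CPM in sh-1 and 184.7 ± 6.01 CPM in sh-NC (log2 fold change -0.0041, SE 0.08). Uqcrc1, Uqcr10 and Uqcr11 did not pass, at -0.21, -0.01 and -0.34. Cyc1, the cytochrome c1 gene that the rule leaves out, averaged 215.4 ± 19.0 CPM in sh-1 and 302.2 ± 34.1 CPM in sh-NC (log2 fold change -0.49, edgeR adjusted p = 0.000866; GC-adjusted -0.10).

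Complex IV, cytochrome c oxidase, hands electrons to oxygen, and its nuclear-encoded subunits surround a catalytic core made in the mitochondrion. Of the 11 subunits used in most tissues, 7 were lower, 2 higher and 2 did not pass. Over all tested genes 32.2% were lower and 33.3% higher. With the GC-adjusted values all 11 were lower, against 34.7% of all genes. Cox7c, Ndufa4 and Cox7b were above 0 before the adjustment, at 0.46, 0.34 and 0.18. Across the members the adjusted values still ran along with GC content (rho 0.47). The part of this in the 11 lower calls was not tested. Cox4i1, a regulatory subunit that had the highest mean FPKM of all members (984.3 over the 6 libraries), measured 616.6, 519.6 and 508.8 CPM in sh-1, against 781.8, 1096 and 1098 CPM in sh-NC. The sh-1 libraries were all lower, and sh-NC replicate 1 lay between them and the other controls (log2 fold change -0.86 with SE 0.13, edgeR adjusted p = 0.000115; GC-adjusted -0.40). Exons of Cox4i1 overlap those of Emc8 on the opposite strand.

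Cox8a, a small membrane subunit, measured 237.2, 222.0 and 206.9 CPM in sh-1, against 303.4, 389.4 and 460.9 CPM in sh-NC. Cox6a1 measured 137.1, 125.9 and 107.8 CPM in sh-1, against 170.7, 212.2 and 243.7 CPM in sh-NC. Neither gene overlapped between the groups, with log2 fold changes of -0.79 (standard error 0.13, edgeR adjusted p = 0.000171) and -0.76 (SE 0.13, edgeR adjusted p = 0.000216) and GC-adjusted values of -0.33 and -0.29. Cox6c measured 101.6, 99.7 and 97.5 CPM in sh-1, against 121.0, 166.7 and 167.9 CPM in sh-NC. Its sh-1 libraries lay within a few CPM of each other and below every control (log2 fold change -0.61 with SE 0.11, edgeR adjusted p = 0.000509; GC-adjusted -0.97). Cox7a2, Cox6b1 and Cox5a were lower by smaller factors, with log2 fold changes of -0.39, -0.38 and -0.25. Cox7a2l, a factor that links complexes III and IV into supercomplexes, measured 272.7, 222.7 and 254.2 CPM in sh-1, against 333.5, 366.3 and 371.1 CPM in sh-NC. It was lower without overlap (log2 fold change -0.51 with SE 0.09, edgeR adjusted p = 0.00031; GC-adjusted -0.54).

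The 2 complex IV subunits called higher both had transcripts of low GC content. Cox7c, at 38.4% GC, measured 79.2, 101.5 and 90.1 CPM in sh-1, against 61.1, 75.9 and 59.2 CPM in sh-NC. Ndufa4, once counted with complex I and now with complex IV, measured 85.0, 102.9 and 99.1 CPM in sh-1, against 62.5, 78.5 and 86.4 CPM in sh-NC. Cox7c did not overlap between the groups (log2 fold change 0.46 with SE 0.12, edgeR adjusted p = 0.00404), and Ndufa4 did (0.34, SE 0.12, edgeR adjusted p = 0.0259). Both were called lower with the GC-adjusted values, at -0.74 and -0.45. The call of Ndufa4 was lost without sh-NC replicate 1 (at 0.22, edgeR adjusted p = 0.0712), without sh-1 replicate 2 (at 0.29, edgeR adjusted p = 0.091) and without sh-1 replicate 3 (at 0.32, edgeR adjusted p = 0.0674).

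Cox7b measured 61.7, 120.3 and 91.8 CPM in sh-1, against 71.5, 78.7 and 91.0 CPM in sh-NC. Its sh-1 libraries spanned the whole sh-NC range, and it did not pass (log2 fold change 0.18 with SE 0.22, edgeR adjusted p = 0.498). Without sh-1 replicate 1 it was called higher (0.41, edgeR adjusted p = 0.0198), without sh-1 replicate 2 it was at -0.06, and its GC-adjusted value was -0.80 (edgeR adjusted p = 0.0182). Cox5b did not pass (-0.16, edgeR adjusted p = 0.2), and a near-identical copy of it, Gm11273, held 8.63% as many counts.

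The isoforms of complex IV that are known from heart, skeletal muscle, lung or testis were nearly absent. Cox4i2, Cox6b2, Cox7b2, Cox8b, Cox8c and Ndufa4l2 were not tested and averaged no more than 0.184 CPM in either group. Cox6b2 and Cox8c were at 0 in all 6 libraries. Cox6a2, the heart and muscle form of Cox6a1, had 0, 9 and 0 counts in sh-1, against 12, 16 and 30 counts in sh-NC. Its log2 fold change of -2.58 (standard error 1.01, edgeR adjusted p = 0.0394) rested on these few counts, and the call was lost in 4 of the 6 fits that left out a library, those without sh-NC replicate 2, sh-NC replicate 3, sh-1 replicate 1 and sh-1 replicate 3 (edgeR adjusted p = 0.0765, 0.148, 0.127 and 0.12). Without sh-1 replicate 2 both remaining sh-1 libraries were at 0 and the fitted value was -7.22 (edgeR adjusted p = 0.00374), which is no bound. The call was also lost with DESeq2 (adjusted p = 0.0522) and with no filter on low counts (edgeR adjusted p = 0.0534). Cox7a1, the heart and muscle form of Cox7a2, measured 1.94, 1.37 and 0.938 CPM in sh-1, against 0.411, 0.892 and 0.873 CPM in sh-NC. The groups did not overlap but it did not pass (log2 fold change 0.96 with SE 0.45, edgeR adjusted p = 0.0784), and it passed without sh-1 replicate 3 (at 1.20, edgeR adjusted p = 0.0475) and as a GC-adjusted value (1.29, edgeR adjusted p = 0.0155). Cox7a1 made up 2.37 ± 0.742% of the summed FPKM of Cox7a1 and Cox7a2 in sh-1 and 0.909 ± 0.269% in sh-NC (SD, n = 3 each).

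Complex V consists of the F1 head, which makes ATP on its catalytic sites, and the Fo part, whose ring of c-subunits turns as protons pass. All 5 F1 genes had a log2 fold change below 0, as did 6602 of all 13197 tested genes. Of the 5, 3 were called lower, against 32.2% of all tested genes. With the GC-adjusted values 2 of the 5 were lower and 1 was higher, at a median of -0.01. Atp5b, the catalytic beta subunit, measured 1635, 1416 and 1473 CPM in sh-1, against 2094, 2359 and 2491 CPM in sh-NC. Its groups did not overlap (log2 fold change -0.62 with SE 0.10, edgeR adjusted p = 0.000221; GC-adjusted -0.44). Atp5a1, the alpha subunit that alternates with beta in equal number, measured 1674, 1489 and 1583 CPM in sh-1, against 1622, 1692 and 1717 CPM in sh-NC. It overlapped and did not pass (log2 fold change -0.08 with SE 0.09, edgeR adjusted p = 0.444; GC-adjusted 0.30, called higher). Per length, Atp5b averaged 773.5 FPKM and Atp5a1 628.9 FPKM in sh-1, against 1132 and 636.8 FPKM in sh-NC.

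Atp5e, the epsilon subunit of the central stalk, measured 32.6, 34.9 and 29.7 CPM in sh-1, against 46.1, 70.9 and 63.0 CPM in sh-NC. Atp5d, the delta subunit beside it, averaged 205.7 ± 14.1 CPM in sh-1 and 285.5 ± 45.2 CPM in sh-NC. Both were lower without overlap, with log2 fold changes of -0.89 (standard error 0.14, edgeR adjusted p = 0.000152) and -0.47 (SE 0.11, edgeR adjusted p = 0.00235). The GC-adjusted value of Atp5e was -0.62, and that of Atp5d was 0.07 (edgeR adjusted p = 0.397). Atp5c1, the gamma subunit that forms the rotating shaft, averaged 404.4 ± 18.6 CPM in sh-1 and 422.1 ± 33.7 CPM in sh-NC and did not pass (-0.06, SE 0.09).

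The 3 c-subunit genes Atp5g1, Atp5g2 and Atp5g3 encode the same mature protein with different import sequences. Atp5g2 (chromosome 15, 102662864 to 102672352, minus strand) measured 270.9, 247.1 and 254.9 CPM in sh-1, against 404.9, 481.7 and 555.0 CPM in sh-NC. It was lower in every sh-1 library (log2 fold change -0.90 with SE 0.11, edgeR adjusted p = 1.25e-05; GC-adjusted -0.26, edgeR adjusted p = 0.00227). Atp5g3 measured 364.3, 323.7 and 330.9 CPM in sh-1, against 324.8, 351.7 and 369.6 CPM in sh-NC, and its libraries were interleaved (-0.04, SE 0.08, edgeR adjusted p = 0.711). Atp5g1 measured 65.6, 69.5 and 62.0 CPM in sh-1, against 62.4, 79.0 and 90.6 CPM in sh-NC. It did not pass (-0.24, SE 0.12, edgeR adjusted p = 0.109), and it was called lower without sh-NC replicate 1 (at -0.37, edgeR adjusted p = 0.00398) and with the GC-adjusted value (-0.62, edgeR adjusted p = 0.019).

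As shares of the summed FPKM of these 3 genes, Atp5g2 made up 39.2 ± 0.672% in sh-1 and 53.0 ± 1.63% in sh-NC (SD, n = 3 each). Atp5g3 made up 50.6 ± 0.882% in sh-1 and 38.3 ± 2.46% in sh-NC, and Atp5g1 10.2 ± 0.714% in sh-1 and 8.71 ± 0.899% in sh-NC. The shares of Atp5g2 and Atp5g3 did not overlap between the groups, and in these deposited FPKM, which carry no GC adjustment, the highest of the 3 was Atp5g3 in sh-1 and Atp5g2 in sh-NC. The Atp5g2 transcript has 63.4% GC, and the GC-adjusted log2 fold changes were -0.26 for Atp5g2 and -0.03 for Atp5g3. An exact permutation test on 3 against 3 libraries cannot give a two-sided p below 0.1, and none is given for these shares.

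In the peripheral stalk, which holds the F1 head still, Atp5j and Atp5f1 rose while Atp5h and Atp5o fell. Atp5j, coupling factor 6 (chromosome 16, 84827866 to 84835625, minus strand), measured 56.6, 62.5 and 54.1 CPM in sh-1, against 26.5, 25.5 and 27.1 CPM in sh-NC. The sh-1 libraries were 2.19-fold higher without overlap (log2 fold change 1.13 with SE 0.10, edgeR adjusted p = 7.95e-07), and the GC-adjusted value was larger, at 1.48 (edgeR adjusted p = 2.88e-08). Exons of Atp5j overlap those of Gabpa on the opposite strand, which averaged 28.7 ± 2.03 CPM in sh-1 and 19.2 ± 3.02 CPM in sh-NC. Atp5f1, the b subunit, averaged 246.4 ± 11.2 CPM in sh-1 and 179.0 ± 11.9 CPM in sh-NC (log2 fold change 0.46 with SE 0.08, edgeR adjusted p = 0.000289; GC-adjusted 0.40). Atp5o, which encodes the subunit that joins stalk and head, and Atp5h, the d subunit, were at -0.32 (SE 0.10, edgeR adjusted p = 0.016) and -0.32 (SE 0.11, edgeR adjusted p = 0.0216). The GC-adjusted value of Atp5o, -0.06, did not pass (edgeR adjusted p = 0.417), and that of Atp5h was -0.35 (edgeR adjusted p = 0.000999). A further row named Atp5o, with its own identifier at the same locus, was at 0 in every library and was not tested.

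Among the small membrane subunits of Fo, Atp5mpl was higher (0.44, SE 0.13, edgeR adjusted p = 0.0112), and Atp5l (-0.49, SE 0.15, edgeR adjusted p = 0.0135) and Atp5j2 (-0.47, SE 0.12, edgeR adjusted p = 0.00558) were lower. Atp5k did not pass (-0.14, SE 0.18). The groups overlapped in Atp5l and Atp5h although both were called. Without sh-NC replicate 3 the number of complex V members called lower was 5 in place of 8. In that fit 7983 of all 13571 tested genes were called in either direction.

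Assembly factors are not part of the finished complexes, and 2 of the 3 complex III factors were lower in sh-1. Uqcc1, which binds newly made cytochrome b together with Uqcc2 (chromosome 2, 155846894 to 155930310, minus strand), measured 53.1, 48.2 and 52.5 CPM in sh-1, against 102.5, 101.3 and 102.1 CPM in sh-NC. The 3 sh-NC libraries were nearly equal and about 2-fold above sh-1 (ratio 0.503, log2 fold change -0.99 with SE 0.08, edgeR adjusted p = 6.04e-07; GC-adjusted -0.79). Uqcc3 averaged 33.6 ± 2.88 CPM in sh-1 and 52.8 ± 4.13 CPM in sh-NC (log2 fold change -0.65 with SE 0.10, edgeR adjusted p = 0.000135; GC-adjusted -0.48). Uqcc2, the member of this class with the highest mean FPKM, measured 89.7, 86.5 and 90.1 CPM in sh-1, against 74.3, 114.5 and 111.7 CPM in sh-NC. Its sh-1 libraries lay between sh-NC replicate 1 and the other controls (-0.17, SE 0.14, edgeR adjusted p = 0.285). Without sh-NC replicate 1 it was called lower (-0.35, edgeR adjusted p = 0.00207), and with the GC-adjusted value it was called higher (0.30, edgeR adjusted p = 0.003).

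Of the 8 complex I assembly factors 3 were higher, 1 was lower and 4 did not pass. Ndufaf1, a member of the complex that builds the membrane arm, measured 39.8, 29.9 and 35.3 CPM in sh-1, against 59.97, 57.3 and 62.9 CPM in sh-NC. It was lower without overlap (log2 fold change -0.78 with SE 0.11, edgeR adjusted p = 5.90e-05; GC-adjusted -1.22). Ndufaf7, a methyltransferase that acts during complex I assembly, measured 37.9, 34.8 and 33.9 CPM in sh-1, against 20.6, 21.1 and 20.2 CPM in sh-NC. It was higher without overlap (log2 fold change 0.79 with SE 0.10, edgeR adjusted p = 2.65e-05), and its GC-adjusted value of 0.18 did not pass (edgeR adjusted p = 0.143). Ndufaf3 and Ndufaf4, which act together early in assembly, were both higher (0.55 and 0.36), with GC-adjusted values of 0.95 and -0.70. Ndufaf2, Ndufaf5, Ndufaf6 and Ndufaf8 did not pass, at 0.11, -0.12, -0.47 and 0.40. After the GC adjustment Ndufaf5 (-0.45) and Ndufaf6 (-0.48) were called lower and Ndufaf8 (0.75) higher, while Ndufaf2 (-0.22) again did not pass. Atp5s, known as factor B of ATP synthase, measured 5.13, 5.33 and 5.40 CPM in sh-1, against 1.45, 1.94 and 1.95 CPM in sh-NC. It had the largest log2 fold change among the members called higher (1.57, SE 0.23, edgeR adjusted p = 7.44e-05), at a low level and at 40.2% GC, and its GC-adjusted value of 0.52 did not pass (edgeR adjusted p = 0.063).

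Other genes of the pathway were read from 4 lists, chosen with earlier results of these data known. The share called was 61.54% of the mitochondrially encoded subunits, 56.25% of the carriers, 69.05% of the further assembly factors and 72.22% of the regulators. Of all tested genes 65.5% were called, 33.3% higher and 32.2% lower, and differences from this share were not tested. Of the 13 mitochondrially encoded subunits 3 were higher and 5 lower (median log2 fold change -0.18). mt-Nd1 averaged 2552 ± 507.6 CPM in sh-1 and 1371 ± 174.7 CPM in sh-NC (0.90, SE 0.14, edgeR adjusted p = 0.000154), and mt-Nd2 averaged 1219 ± 233.5 CPM in sh-1 and 1941 ± 247.1 CPM in sh-NC (-0.67, SE 0.14, edgeR adjusted p = 0.0012). After the GC adjustment 0 were higher and 13 lower, mt-Nd1 included (-0.32), against 32.9% higher and 34.7% lower of all genes. These genes have a median GC content of 37.1%, where the trend taken from them is that of nuclear genes. Of 16 genes for other electron carriers and for carriers of ATP, ADP and phosphate, 4 were higher and 5 lower (median -0.06). Etfdh, which feeds electrons from fatty acid oxidation to ubiquinone, averaged 40.7 ± 2.22 CPM in sh-1 and 16.1 ± 2.31 CPM in sh-NC (1.34, SE 0.12, edgeR adjusted p = 1.43e-06; GC-adjusted 1.07). Sqor, which feeds electrons from sulfide to ubiquinone, averaged 45.7 ± 2.49 CPM in sh-1 and 20.0 ± 2.23 CPM in sh-NC (1.19, SE 0.11, edgeR adjusted p = 1.62e-06; GC-adjusted 1.06).

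Of 42 tested genes for assembly factors outside the naming rule, 16 were higher and 13 lower (median -0.03). Sco1, a copper chaperone of complex IV, averaged 12.8 ± 0.295 CPM in sh-1 and 28.1 ± 5.16 CPM in sh-NC (-1.14, SE 0.14, edgeR adjusted p = 1.61e-05; GC-adjusted -1.41). Taco1, a translational activator of mitochondrially encoded Cox1, averaged 17.7 ± 0.922 CPM in sh-1 and 38.0 ± 1.35 CPM in sh-NC (-1.10, SE 0.10, edgeR adjusted p = 1.66e-06; GC-adjusted -0.84). Of 18 genes for transcription factors and mitochondrial DNA maintenance, 5 were higher and 8 lower (median -0.10). Nrf1, a transcription factor of respiratory genes, averaged 31.0 ± 1.89 CPM in sh-1 and 81.6 ± 2.87 CPM in sh-NC (-1.40, SE 0.09, edgeR adjusted p = 8.85e-08; GC-adjusted -1.25). Twnk, the mitochondrial DNA helicase, averaged 57.1 ± 6.74 CPM in sh-1 and 156.6 ± 3.00 CPM in sh-NC (-1.46, SE 0.09, edgeR adjusted p = 8.65e-08; GC-adjusted -1.16).

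Stretches of at least 200 bases with at least 95% identity to another locus occur in 20 tested members, among them Uqcrb, Cox7c, Cox7b, Cox6c, Cox7a2l, Ndufb3, Ndufb11, Atp5f1, Atp5g1, Atp5h, Atp5l and Atp5o, and how reads shared between such copies were counted is not given in the sources used here. Exons of 31 tested members overlap another annotated gene, a protein-coding one in 25, and without a stated use of strand these reads cannot be told apart.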

How the data were processed

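The labels name poly(A) selection with oligo(dT) beads, and the submitters' processing notes name HISAT2, StringTie and GRCm38, without versions or a counting rule. The authors deposited 1 table with whole-number counts per gene and library, not normalised, per the file headers and the values. The FPKM values in the same table were scaled by the authors for length and depth, per the file headers. Of its 26369 rows, 10 without an identifier were dropped. The authors' own comparison of A with B was not used, because which samples those letters stand for is not stated.

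Counts were tested in R 4.3.3 with edgeR 4.0.16 (limma 3.58.1), with filterByExpr, TMM scaling and robust quasi-likelihood fits of the group on all 6 libraries. P-values are two-sided, with Benjamini-Hochberg adjustment across the 13197 tested genes and 0.05 as threshold. Standard errors of fold changes follow from the F statistic, and errors of levels are SD over 3 libraries. GC content and length came from GENCODE M21, and their trend was removed per library with natural splines (5 and 4 degrees of freedom) as an offset, for 11956 genes. Near-identical copies were found with blastn 2.17.0 in GENCODE transcripts, and promoter windows came from RefSeq. Alternatives were other scaling factors, no filter, DESeq2 1.42.0, each library left out, and a block of title numbers.

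The members, roles and lists, and the naming rule, were chosen with earlier results of these data known. The rule names per class up to 4 called members with the smallest adjusted p, the member with the highest FPKM, members changed at least 2-fold, the complex IV isoforms, the c-subunit genes, and 2 genes per list. Other members are named only to account for their class, after their values were seen. Of the members and the marker genes, 1 each enters the counts but is not reported here.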

Additional observations from a re-analysis of the deposited data

How the results depend on the processing

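Under every alternative run, the count of members called stayed within 1.5 times the reported one, with 15 to 27 higher and 24 to 40 lower. Counts within single complexes moved by more. In complex I, 6 members were higher in the main fit, 13 with the GC content and length offset and 3 with a replicate block. In complex V, 8 were lower in the main fit and 5 without sh-NC replicate 3. The members behind the totals changed too. Of the 20 called higher, 9 were still higher with the offset and 6 were lower. Leaving out each library in turn gave 15 to 20 higher and 24 to 38 lower. Over all genes these fits called 7912 to 8728 of 13547 to 13670 tested genes in either direction, and all alternatives together 7421 to 8781. With the GC content and length offset Tm9sf1 was at -0.0909 and no longer passed (edgeR adjusted p = 0.36), and with a replicate block added it was at -0.089. Among the genes picked by the naming rule, signs turned with the offset, and with the offset and the block together, for Cox7b (-0.797 and -0.568), Ndufa4 (-0.451 and -0.345), Ndufb3 (-0.0949 and -0.128), Uqcc2 (0.298 and 0.323), Uqcrb (-0.302 and -0.38), Uqcrc2 (-0.115 and -0.166) and mt-Nd1 (-0.316 and -0.372). Members outside that rule turned with the offset too, among them Cox7c (0.46 before and -0.74 after), Ndufaf4 (0.36 and -0.70) and Atp5d (-0.47 and 0.07). The cause was not tested. Atp5g3, near 0 throughout, was at 0.0301 with upper quartile factors and between -0.0863 and 0.008 with a library left out, and Cox7b lay between -0.0555 and 0.405 with a library left out. DESeq2 size factors turned no sign among the named genes. The title numbers 2 and 3 occur in both groups, but same-numbered libraries did not deviate together (correlations of 0.0302 and -0.0531). What the numbers stand for is not given, and 2 such pairs cannot exclude a shared batch or culture. A replicate block on those 4 libraries gave 15 members higher and 25 lower, and the same 4 libraries without a block (an alternative chosen after seeing the data) 17 and 25. Of all 13384 genes tested with these 4 libraries, 7478 were called with the block and 7931 without it. For the tissue isoforms of complex IV that were not tested, a difference was not detectable at this depth.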

Other observations

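Some respiratory chain genes start close to a gene on the opposite strand. On GRCm38, 31 tested members have a protein-coding gene on the opposite strand whose start lies within 500 bases of their own, and 28 pairs had both genes tested. The order of the starts was not checked, and in some pairs, such as Cox4i1 and Emc8, exons overlap. The share of all genes with such a neighbour was not computed. Both genes were called in 12 of these pairs, and 6 of the 12 moved in the same direction. The share of 65.5% called over all tested genes is of single genes, and a share for pairs was not computed. Cox4i1 enters with both Emc8 and Gm27021, and both of its pairs are among these 6. The 6 also include partners at very low levels. Gm27021 averaged 0.184 CPM in sh-1 and 0.588 CPM in sh-NC. Gdf9, the partner of Uqcrq, averaged 0 CPM in sh-1 and 0.678 CPM in sh-NC. Across the 28 pairs, which share the same 6 libraries, Spearman's rho between the log2 fold changes was -0.02, given as a description. Ndufs1 (1.28) starts 8 bases from Eef1b2, a translation elongation factor gene, which was lower (-0.51, SE 0.11, edgeR adjusted p = 0.00146). Ndufb9 (-0.60) starts 18 bases from Tatdn1, which was higher (1.52, SE 0.18, edgeR adjusted p = 1.04e-05). Sdhd (-0.26) starts 98 bases from Timm8b, a mitochondrial import gene, which was higher (0.40, SE 0.11, edgeR adjusted p = 0.00546). Ndufb11 (-0.76) and Rbm10, an RNA-binding protein gene 116 bases away, were both lower (Rbm10 at -0.71, SE 0.08, edgeR adjusted p = 6.74e-06). These 4 pairs were picked after their values were seen.

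Further complex IV assembly factors, outside the naming rule, had these values. Sco2, which delivers copper, averaged 16.6 ± 4.72 CPM in sh-1 and 38.9 ± 3.21 CPM in sh-NC (-1.23, edgeR adjusted p = 4.89e-05), and Cox11 averaged 5.46 ± 0.337 CPM in sh-1 and 11.7 ± 1.06 CPM in sh-NC (-1.10, edgeR adjusted p = 7.64e-05). Cox17, which hands copper to both Sco proteins, averaged 28.1 ± 2.44 CPM in sh-1 and 20.3 ± 3.40 CPM in sh-NC (0.47, edgeR adjusted p = 0.00939; GC-adjusted 0.02, not called). Cox20, a chaperone of the mitochondrially encoded Cox2, averaged 11.1 ± 2.22 CPM in sh-1 and 4.01 ± 0.748 CPM in sh-NC (1.46, edgeR adjusted p = 6.59e-05; GC-adjusted 0.69). Cox10, which makes haem O, was lower (-0.52, edgeR adjusted p = 0.000567; GC-adjusted -0.11, not called). Cox15, which makes haem A, did not pass at -0.01 (edgeR adjusted p = 0.966; GC-adjusted -0.26, called lower), and neither did Cox19 at -0.24 (edgeR adjusted p = 0.071) or Coa6 at -0.20 (edgeR adjusted p = 0.337; GC-adjusted -0.49, called lower). These genes were picked after their values were seen.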
